A study of Homo sapiens with 8 samples.

Results

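The minor spliceosome snRNA genes described here are RNU11, RNU12, RNU4ATAC and RNU6ATAC, which encode the U11, U12, U4atac and U6atac small nuclear RNAs. Their members in this data set are the ATAC-seq peaks within 1 kb of either end of these 4 RefSeq genes. The rule found 4 peaks, 1 at each gene, among 129536 peaks in the table, and all 4 passed the filter on low counts. ATAC-seq measures open chromatin through the places where a transposase can insert sequencing adapters. It was run on HEK293 cells, a human embryonic kidney line, that carry eGFP-YAP according to the genotype field, while the titles name HEK293 alone. The vehicle group held 4 libraries, labelled 0 h, and the sorbitol group held 4 libraries whose cells had spent 1 h in 0.2 M sorbitol, which draws water out of cells. According to the series' text, the eGFP-YAP cells were starved of serum for 1 h first, which would apply to both groups. How eGFP-YAP was introduced, and whether the line is 1 clone, is not given in the sources used here. The labels do not say whether replicates came from separate cultures, so p-values measure the spread between these libraries, which may be technical.

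A small class of introns, the U12-type introns, is removed by the minor spliceosome and not by the major one. U11 pairs with the start of such an intron and U12 with its branch site. U4atac holds U6atac in an inactive pairing until U6atac takes over at the intron start and joins the catalytic core. U11, U12 and U4atac are made by RNA polymerase II and U6atac by RNA polymerase III. Both kinds of snRNA gene carry an upstream proximal sequence element that binds the SNAPc complex, and the polymerase III kind adds a TATA box. Each of these RNAs comes mainly from a single functional gene, and U6atac is known as a short-lived RNA that stress kinase signalling can stabilise.

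Positions are GRCh38 coordinates, the build named in the submitters' processing notes. RNU11, 135 bp long, lies at chr1:28648600-28648734, and its peak spans 28648101 to 28649606. That peak is also within 1 kb of an end of TAF12, which encodes a subunit of the TFIID and SAGA complexes, and of the lncRNA TAF12-DT, whose span covers RNU11. RNU12, 150 bp long, lies at chr22:42615244-42615393 in a peak from 42614397 to 42616065, which also holds an end of POLDIP3, a protein-coding gene 360 bp away, and of LOC124905127. RNU4ATAC, 130 bp long, lies at chr2:121530880-121531009, inside the spans of CLASP1 and of the lncRNA CLASP1-AS1. The gene table does not separate exons from introns. Its peak runs from 121530013 to 121532043 and reaches an end of CLASP1-AS1, but no end of a protein-coding gene. RNU6ATAC, 126 bp long, lies at chr9:134164439-134164564 in a peak from 134164127 to 134165537, which also holds an end of the lncRNA LOC124902297. Counts in a peak cannot be divided between the genes that share it. In bulk ATAC-seq, fewer cells with a site open and less opening per cell cannot be told apart.

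The RefSeq promoter table (GRCh38.p14) lists none of the 4 snRNA genes. It does hold the 250 bases before the POLDIP3 start, which lie inside the RNU12 peak and end 110 bp from RNU12. They are shown because they are part of the stretch between the snRNA gene and its neighbour in a peak that fell after sorbitol. The sequence at chr22:42614884-42615133 is written 5′ to 3′ on the minus strand, so the end nearest RNU12 comes first. Capitals mark an octamer-like match and a pair of ETS core matches.
POLDIP3 upstream: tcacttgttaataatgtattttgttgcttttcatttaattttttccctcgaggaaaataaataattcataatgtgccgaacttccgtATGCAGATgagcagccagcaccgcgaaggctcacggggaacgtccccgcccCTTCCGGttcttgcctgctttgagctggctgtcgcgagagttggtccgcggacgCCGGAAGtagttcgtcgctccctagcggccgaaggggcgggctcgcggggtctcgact

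The octamer core ATGCAAA, the TATA forms TATAAA and TATATA, the proximal sequence element core ACCNTNA and a ZNF143 core motif were searched on both strands, and none occurred in these 250 bases. The 110 bp between this window and RNU12 were not searched. Elements next to the snRNA gene could therefore not be found, and nothing is concluded about its own promoter. In the other RefSeq promoter window inside the RNU12 peak, that of LOC124905127, the proximal element core matched as TTAGGGT at chr22:42614765-42614771, 479 bp to the left of RNU12. Among all 35116 promoter windows of 300 bp, the octamer core was found in 4.462%, TATAAA in 11.53%, TATATA in 3.987%, the proximal element core in 27.05% and the ZNF143 core in 1.734%. After the letters had been read, the search was widened to the octamer form ATGCNNAT and the ETS core CCGGAAG. The form ATGCNNAT was matched by ATGCAGAT, 205 bp to the left of the RNU12 start, and occurred in 7.979% of windows. CCGGAAG matched on each strand, at 309 and 255 bp to the left of RNU12, and occurred in 10.26% of windows. These are matches of letters and not sites of binding.

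Libraries held 11522266 to 19831471 counts in peaks, and all 4 sorbitol libraries were shallower than all 4 vehicle libraries, a difference whose part in the results was not tested. Pearson correlations of log2 values were 0.9476 to 0.9679 within groups and 0.9105 to 0.9268 between groups. The leading principal component (46.32% of variance) separated the groups, and the next (11.34%) set vehicle 4 apart from sorbitol 4, so results are also given without these libraries. Of 5 genes chosen as open in HEK293 cells, 4 (LHX1, SOX4, VIM and NEFM) had a peak at a gene end and PAX2 had none. Among genes of blood and liver cells, CD3E and ALB had none, and PTPRC had 1 weak peak, at a mean of 1.16 CPM (counts per 1000000 counts in the library's peaks).

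All 4 snRNA gene peaks were less accessible after sorbitol, but by unequal amounts. RNU11 and RNU12 kept 48.4% and 48.9% of their vehicle mean in CPM. RNU4ATAC kept 79.8% and RNU6ATAC 73.4%. By edgeR's quasi-likelihood test with Benjamini-Hochberg adjustment over 129487 tested peaks, 4 of 4 members were lower and 0 were higher at an adjusted p under 0.05. Among all tested peaks 29.1% were called, 13.1% lower and 16.0% higher. Among 25203 tested gene-end peaks, those within 1 kb of an end of any RefSeq gene, 41.6% were called, 32.8% lower and 8.74% higher. This background depends on the scaling: 45.1% of all calls were lower here, 32.6% with library totals and 20.3% with TMM factors from gene-end peaks, which raised the median of all peaks from 0.01 to 0.19. RNU11 and RNU12 fell at least 2-fold, as did 0.881% of all tested peaks and 1.32% of gene-end peaks. They did not reach 2-fold with TMM factors from gene-end peaks (-0.95 and -0.94) or with a loess offset (-0.91 for each).

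RNU11, the gene of the RNA that pairs with the intron start, had 130.6, 146.0, 130.1 and 120.2 CPM in vehicle libraries 1 to 4. The sorbitol libraries had 68.2, 62.3, 61.5 and 63.2 CPM. Every sorbitol library thus lay far below the lowest vehicle library, vehicle 4. The log2 fold change was -1.13 with a standard error of 0.08, and the edgeR adjusted p was 1.01e-16. Without vehicle 4 and sorbitol 4 the log2 fold change was -1.19.

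RNU12, whose RNA pairs with the branch site, had 90.4, 89.0, 82.1 and 69.1 CPM in the vehicle libraries. After sorbitol it had 41.0, 42.9, 38.8 and 38.9 CPM. The groups did not overlap, and vehicle 4 was again the lowest of its group. The log2 fold change was -1.12 with a standard error of 0.08 (edgeR adjusted p = 4.4e-15), and -1.20 without vehicle 4 and sorbitol 4. Only 173 of the 25203 gene-end peaks had a lower log2 fold change than RNU11, and 184 had a lower one than RNU12.

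RNU4ATAC, the gene of the RNA that keeps U6atac inactive, had 103.5, 107.1, 112.8 and 89.8 CPM in the vehicle libraries. Its sorbitol values were 80.7, 79.5, 81.4 and 88.2 CPM. The groups did not overlap, but sorbitol 4 lay just under vehicle 4. The log2 fold change was -0.41 with a standard error of 0.08 (edgeR adjusted p = 6.66e-05), and -0.53 without those 2 libraries. It was -0.23 with TMM factors from gene-end peaks and -0.19 with a loess offset, and was called in both fits (edgeR adjusted p = 0.00563 and 0.0234).

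RNU6ATAC, the polymerase III gene, had 43.7, 38.3, 41.3 and 36.9 CPM in the vehicle libraries and 32.0, 28.3, 30.3 and 27.0 CPM in the sorbitol libraries. Again no sorbitol library reached the lowest vehicle library. The log2 fold change was -0.53 with a standard error of 0.09 (edgeR adjusted p = 4.11e-06), and -0.56 without vehicle 4 and sorbitol 4. With TMM factors from gene-end peaks it was -0.35 and still called. Among gene-end peaks, 14.8% had a lower log2 fold change than RNU6ATAC and 24.3% a lower one than RNU4ATAC. Groups that do not overlap, with sorbitol lower, were found at all 4 members, at 9.47% of all tested peaks and at 24.5% of gene-end peaks. With TMM factors taken from contig peaks, RNU4ATAC and RNU6ATAC had log2 fold changes of -0.47 and -0.60 but no longer passed (edgeR adjusted p = 0.170 and 0.0742). RNU11 and RNU12 did pass in that fit, which called 8.7% of gene-end peaks lower.

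**Figure D1:**
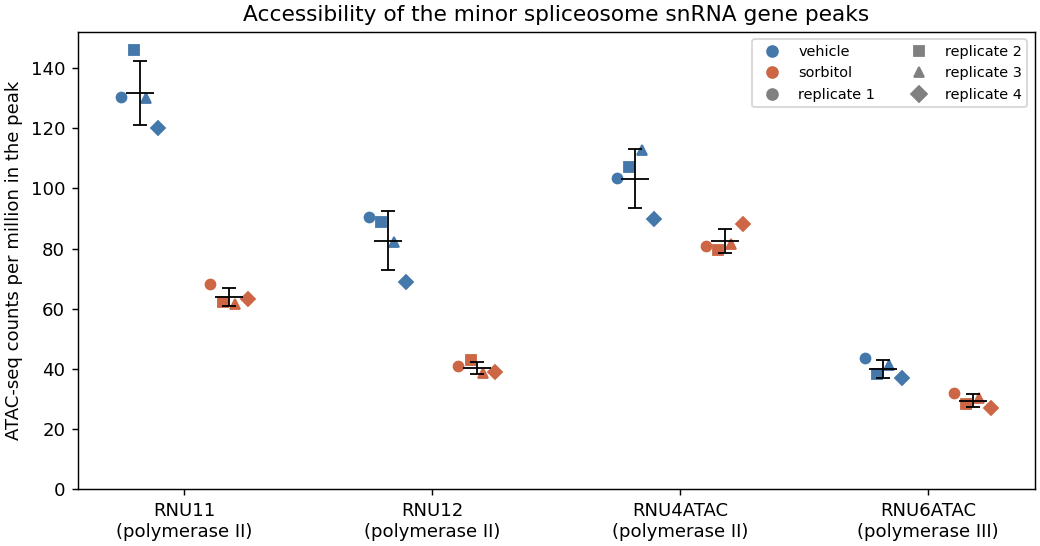
ATAC-seq level in CPM (y axis, from 0) in the peak of each of the 4 genes (x axis), with 1 point per library, a bar at the mean and whiskers of 1 SD (n = 4). At RNU11 and RNU12 the sorbitol libraries sit far below the vehicle libraries, and at RNU4ATAC sorbitol 4 (88.2) lies just under vehicle 4 (89.8).

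Members were strong peaks. RNU11, RNU12 and RNU4ATAC belonged to the strongest decile of gene-end peaks by mean CPM and RNU6ATAC to the next. The median log2 fold change of gene-end peaks was -0.17 (0.0054 with their own TMM factors), against 0.01 for all tested peaks. The median in the strongest decile was -0.19, and 48.2% of its 2521 peaks were called lower. In that decile 0.357% of peaks had a lower log2 fold change than RNU11, 0.397% than RNU12 and 19.2% than RNU4ATAC. In the decile of RNU6ATAC the median was -0.20, and 12.5% of peaks had a lower value.

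Per kb of peak, the vehicle level was highest at RNU11, at 87.5 ± 7.07 CPM per kb (SD, n = 4). RNU4ATAC had 50.9 ± 4.81 and RNU12 49.5 ± 5.84 CPM per kb, and each was above the other in 2 of 4 vehicle libraries, so their order was not resolved. RNU6ATAC was lowest at 28.4 ± 2.17 CPM per kb. After sorbitol the means kept the same order, but the gaps between them differed. RNU4ATAC, at 40.6 ± 1.92 CPM per kb, was above RNU12, at 24.2 ± 1.17, in 4 of 4 sorbitol libraries, and RNU11 (42.4 ± 2.02) was above RNU4ATAC in 3 of 4. RNU6ATAC stayed lowest at 20.8 ± 1.56 CPM per kb.

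The next comparison asked whether the polymerase III gene changed differently from each polymerase II gene. It used the log2 ratio of the counts of 2 peaks within each library, in which library scaling cancels. RNU6ATAC over RNU11 had a log2 ratio of -1.72 ± 0.15 in vehicle and -1.12 ± 0.09 in sorbitol libraries (SD, n = 4). The ratio thus moved by 0.60, and the 4 sorbitol libraries lay above the 4 vehicle libraries (exact two-sided permutation p = 0.0286, adjusted p = 0.0429 over 3 pairs). RNU6ATAC over RNU12 moved from -1.04 ± 0.13 to -0.46 ± 0.12, a difference of 0.58 with the same exact permutation p and adjusted p. RNU6ATAC therefore lost less accessibility than RNU11 and RNU12 in these libraries. The exact permutation p of 0.0286 is the smallest that 4 against 4 libraries allow. A pair alone at this p could not pass adjustment, here or in the later sets of pairs. Each adjusted p under 0.05 thus rests on more than 1 pair of its set reaching it.

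RNU4ATAC, the other polymerase II gene, was not separated from RNU6ATAC in this way. RNU6ATAC over RNU4ATAC had a log2 ratio of -1.36 ± 0.12 in vehicle and -1.49 ± 0.16 in sorbitol libraries. The difference of -0.12 was within the spread of the libraries, which overlapped (exact permutation p = 0.257, adjusted p = 0.257). Pairs among the polymerase II genes were then compared, a choice made after the values had been seen. RNU4ATAC over RNU11 turned from -0.35 ± 0.11 to 0.37 ± 0.10, so RNU4ATAC had fewer counts than RNU11 in 4 of 4 vehicle libraries and more in 4 of 4 sorbitol libraries. This was a difference of 0.72, and RNU4ATAC over RNU12 differed by 0.70 (exact permutation p = 0.0286 and adjusted p = 0.0429 for each). RNU11 over RNU12 was 0.68 ± 0.11 in vehicle and 0.66 ± 0.09 in sorbitol libraries (difference -0.02, exact permutation p = 0.83, adjusted p = 0.83). The genes thus fell into a pair with the larger loss, RNU11 and RNU12, and a pair with the smaller loss, RNU4ATAC and RNU6ATAC. The peaks of the former pair also hold an end of a protein-coding gene and those of the latter do not; its part in the difference was not tested.

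**Figure D2:**
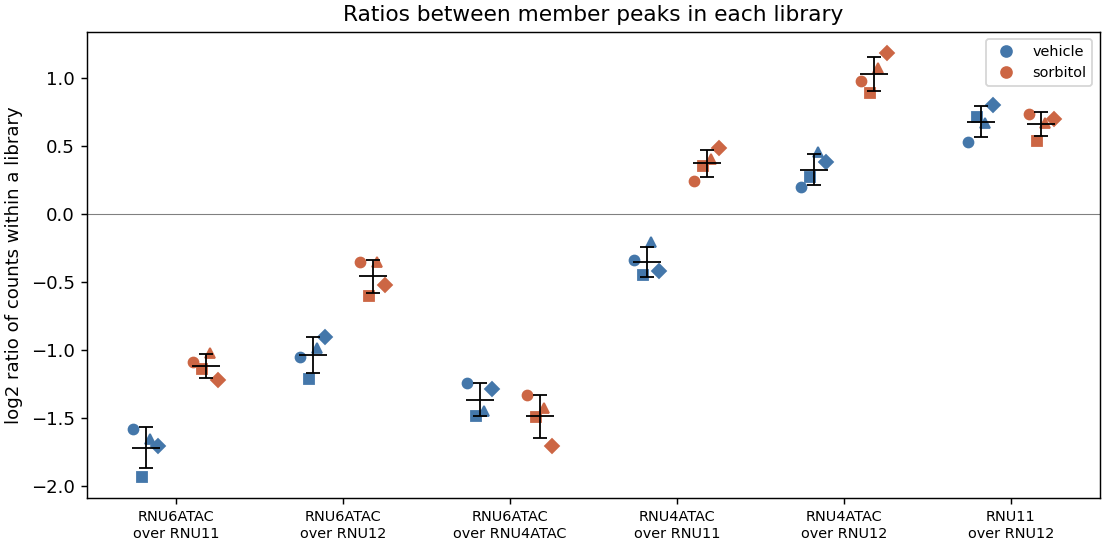
Log2 ratio of the counts of 2 member peaks within each library (y axis) for 6 pairs (x axis), with 1 point per library, a bar at the mean and whiskers of 1 SD (n = 4 per group). The ratio of RNU4ATAC over RNU11 changes sign, from -0.35 to 0.37, while that of RNU11 over RNU12 stays near 0.68 and 0.66.

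Each member was also set against the nearest other gene-end peak on each side, to see whether its loss differed from that of its surroundings. On the left of RNU11, 4.472 kb away, the peak at the other end of TAF12-DT had 53.6 ± 3.83 CPM in vehicle and 36.5 ± 3.10 in sorbitol libraries (SD, n = 4). Its log2 fold change was -0.64. On the right, 18.59 kb away, the peak at GMEB1, a gene for a DNA-binding modulator of glucocorticoid response, had -0.49. RNU11 fell further than either. The log2 ratio to the TAF12-DT peak differed by -0.49 between groups and that to the GMEB1 peak by -0.64 (exact permutation p = 0.0286, adjusted p = 0.0457 over 8 pairs, for each).

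RNU12 stood apart from its surroundings as well. The peak at CYB5R3, the gene of a cytochrome b5 reductase, lies 32.705 kb to the right. It had 24.0 ± 3.58 CPM in vehicle and 23.6 ± 3.10 CPM in sorbitol libraries (log2 fold change -0.11, edgeR adjusted p = 0.442). The ratio of RNU12 to it differed by -1.0 between groups (exact permutation p = 0.0286, adjusted p = 0.0457). On the left, 5.129 kb away, a weak peak at the other end of LOC124905127 had 2.39 ± 0.67 CPM in vehicle and 1.67 ± 0.10 in sorbitol libraries, a log2 fold change of -0.59 (edgeR adjusted p = 0.0725). The ratio of RNU12 to this peak differed by -0.57 (exact permutation p = 0.0286, adjusted p = 0.0457), and by -0.32 without vehicle 2.

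The other gene-end peaks nearest to RNU4ATAC lie 244.469 kb to the left and 116.586 kb to the right. The TFCP2L1 peak on the left had 11.5 ± 1.87 and 13.9 ± 1.19 CPM (log2 fold change 0.20, edgeR adjusted p = 0.198), and the ratio of RNU4ATAC to it differed by -0.61 (exact permutation p = 0.0286, adjusted p = 0.0457). The peak on the right is shared by an end of CLASP1, which encodes a microtubule plus-end protein, and of NIFK-AS1. It had a log2 fold change of -0.29 (edgeR adjusted p = 0.00429). The ratio of RNU4ATAC to this peak differed by -0.11, within the spread of the libraries (exact permutation p = 0.171, adjusted p = 0.229).

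RNU6ATAC did not separate from its neighbours. The WDR5-DT peak, 26.987 kb to the left, had 7.20 ± 0.55 CPM in vehicle and 4.92 ± 0.72 in sorbitol libraries, and its log2 fold change was -0.63. The peak at the far end of LOC124902297, 5.148 kb to the right, had 6.58 ± 0.42 and 5.71 ± 1.56 CPM, with -0.28 (edgeR adjusted p = 0.189). The ratios of RNU6ATAC to these peaks differed by 0.11 and -0.21 (exact permutation p = 0.543 and 0.457, adjusted p = 0.543 and 0.522). Both neighbours are weak peaks, and the second varied between sorbitol libraries from 3.99 to 7.72 CPM.

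Over the nearest 5 gene-end peaks on each side, 6 of 10 were lower around RNU11, 4 of 10 around RNU12, 2 of 10 around RNU4ATAC and 7 of 10 around RNU6ATAC. The farthest of them lay 237, 398, 1184 and 170 kb away, in the same order, so the surroundings differ in reach. Some genes, such as TAF12 and GMEB1, gave more than 1 of the peaks. The share over all gene-end peaks in the same fit was 32.8%, so the counts around RNU12 and RNU4ATAC were close to the background. Only 1 of these 40 peaks was higher, at LOC124907881 near RNU4ATAC. The median log2 fold changes around the 4 genes were -0.43, -0.47, -0.09 and -0.39, in the same order. None of the 10 peaks around RNU11, and none around RNU4ATAC, fell below the member itself, against 1 around RNU12 and 4 around RNU6ATAC. The 4 below RNU6ATAC include, chosen after their values were seen, peaks at BRD3, which encodes a bromodomain protein (-0.73), and BRD3OS (-0.72).

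**Figure D3:**
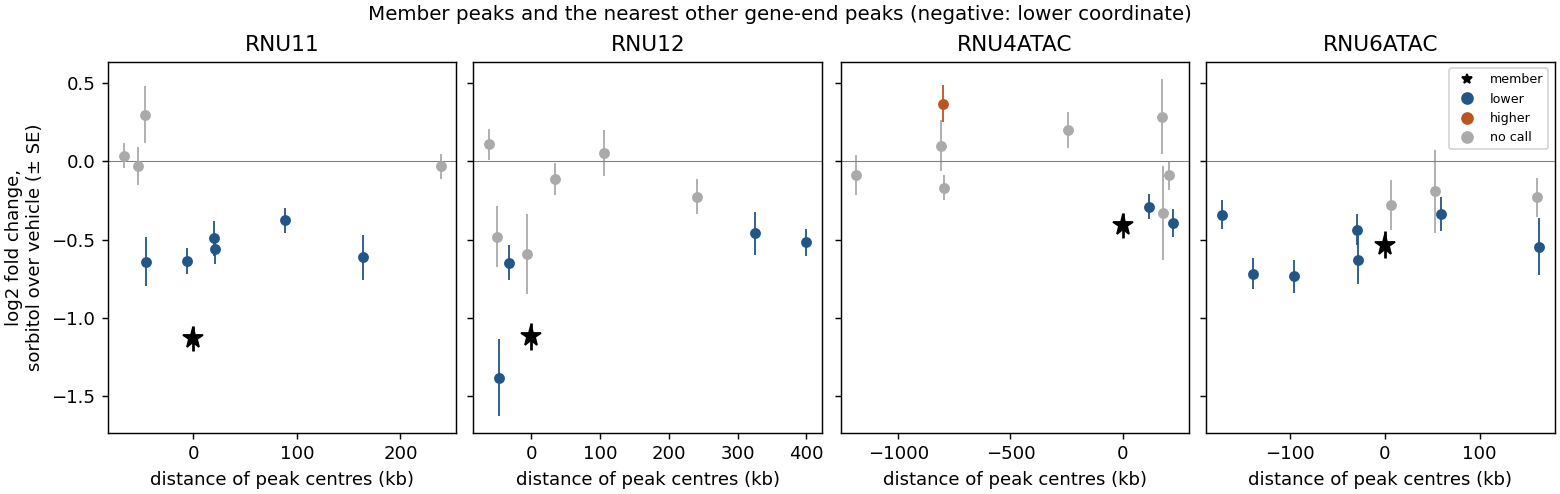
Log2 fold change of sorbitol over vehicle with its standard error (y axis) for each member (star) and the nearest 5 other gene-end peaks on each side (points, coloured by the edgeR call), against the distance between peak centres in kb (x axis, scales differ between panels). RNU11 (-1.13) lies below all 10 of its neighbours, whereas RNU6ATAC (-0.53) lies among its own.

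The nearest comparison set is the major spliceosome snRNA genes of polymerase II, which encode U1, U2, U4 and U5. Their 14 peaks at 13 genes were all lower (14 of 14), against 32.8% of gene-end peaks and 48.2% of the strongest decile of those. The median log2 fold change of the 14 was -1.03, with a range from -1.51 at RNU5D-1 to -0.65. RNU11 and RNU12 lay within this range, while RNU4ATAC lay above all 14 peaks. U4atac is the counterpart of U4, whose genes RNU4-1 and RNU4-2 share a pair of peaks at -1.02 and -0.65. The genes past 2-fold were RNU1-1 (-1.28), RNU1-2 (-1.33), RNU1-3 (-1.08), RNU1-4 (-1.03), RNU2-1 (-1.14), RNU5D-1, RNU5F-1 (-1.47) and the stronger-changing RNU4-1 and RNU4-2 peak. Such genes have near-identical copies, so their counts are uncertain, and they had been seen to fall in an earlier look at the same libraries.

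Other polymerase III genes with promoters outside the gene, namely U6 genes, RN7SK, RMRP and RPPH1, had 9 peaks at 8 genes. Of these 7 fell and 0 rose, against 32.8% lower and 8.74% higher among all gene-end peaks. The median log2 fold change of the 9 was -0.32, with a lowest value of -0.52. RNU6ATAC at -0.53 was thus lower than all 9, though by less than its standard error from the lowest. The smallest p-value was at RMRP, the RNA of RNase MRP, which went from 86.0 to 67.5 CPM (log2 fold change -0.43, edgeR adjusted p = 2.23e-05). That peak is shared with ARHGEF39 and CCDC107. Peaks at RPPH1, RN7SK, RNU6-2 and RNU6-9 are likewise shared, with PARP2, GSTA4, TMEM259 and MED16 in the same order. The count of lower peaks was 3 with TMM factors from gene-end peaks and 4 with a loess offset.

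The protein genes of the minor spliceosome were described in the same way. All 14 genes had a gene-end peak, and of 17 peaks 10 fell and 1 rose (median log2 fold change -0.32). Among all gene-end peaks 32.8% were called lower and 8.74% higher. SNRNP25, a protein of the U11/U12 particle, had the smallest p-value. Its peak, shared with POLR3K, a subunit gene of polymerase III, went from 45.3 to 30.9 CPM (log2 fold change -0.64, edgeR adjusted p = 1.13e-07). ZCRB1, another U11/U12 protein, had the only higher peak, shared with PPHLN1, at 0.25 (edgeR adjusted p = 0.0272). It was not called by DESeq2, nor by edgeR without vehicle 1, without vehicle 4 or without sorbitol 4, when the count of higher peaks was 0. RNPC3, the protein that bridges U11 and U12, had -0.19 (edgeR adjusted p = 0.111).

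Genes of the factors that transcribe snRNA genes, SNAPc, POU2F1, ZNF143, TBP, BRF2, BDP1 and the little elongation complex, had 21 peaks at 15 genes. Of these 13 were lower and 0 higher (median -0.34), and the count of lower peaks was 6 with TMM factors from gene-end peaks and 7 with a loess offset. SNAPC4, the largest SNAPc subunit, had a weak peak that fell from 8.04 to 4.17 CPM (log2 fold change -1.02, edgeR adjusted p = 1.18e-06). The stronger SNAPC4 peak fell less, from 18.9 to 12.7 CPM (log2 fold change -0.65). SNAPC5 had the smallest p-value (-0.60, edgeR adjusted p = 6.79e-07), in a peak shared with the ribosomal protein gene RPL4. Integrator, the complex that cuts the 3′ ends of polymerase II snRNAs, had 19 peaks at 15 subunit genes. Of these 15 were lower and 0 higher (median -0.43). INTS5 had the smallest p-value (-0.70, edgeR adjusted p = 8.61e-09), in a peak shared with GANAB. Another INTS5 peak, at no end of a different gene, fell less (-0.53, edgeR adjusted p = 8.33e-05). A weak INTS1 peak had -1.07. The stronger INTS1 peak fell less, from 17.4 to 13.6 CPM (log2 fold change -0.43). At an unadjusted edgeR p under 0.05, 1 Integrator peak (INTS12, 0.19) was higher and none of the transcription factor or polymerase III peaks was; DESeq2 called 0 peaks of these lists higher. As a reference, 32.8% of gene-end peaks were lower, against 18.8% with TMM factors from gene-end peaks and 24.5% with a loess offset. In the main fit 48.2% were lower in the strongest decile of gene-end peaks, and 48.2% in the next. Shares matched to the strength of each list were not computed.

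**Figure D4:**
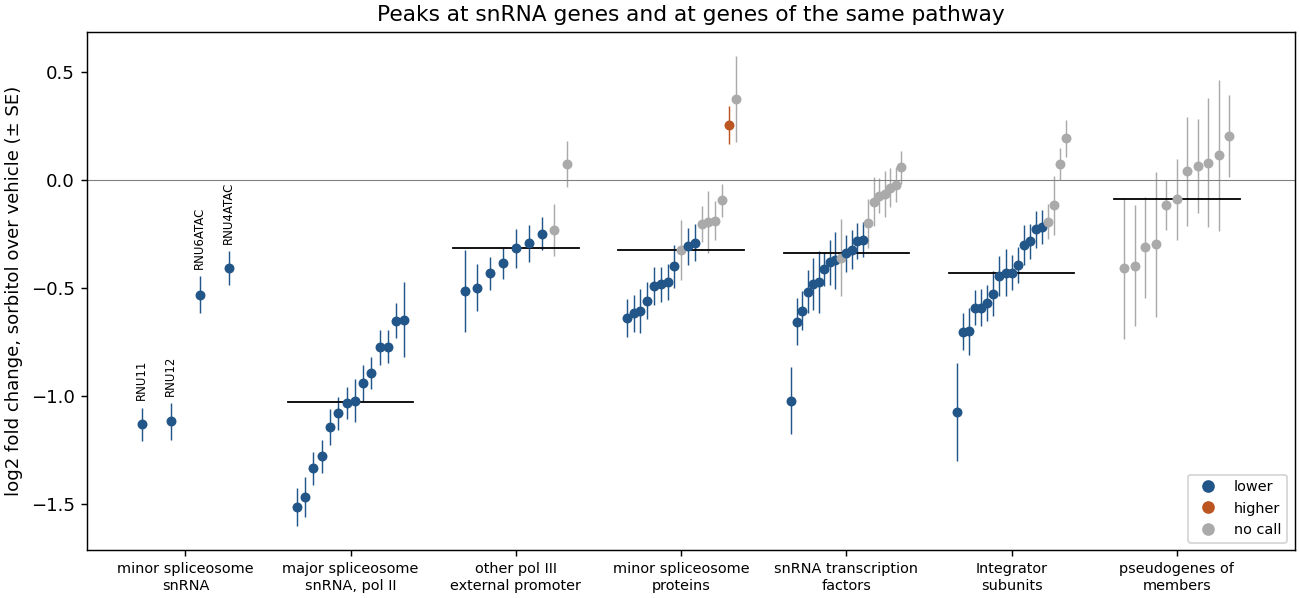
Log2 fold change of sorbitol over vehicle with its standard error (y axis) for every tested peak of 7 gene sets (x axis), ordered by value within a set, coloured by the edgeR call, with a black line at the median of each list but the first. RNU11 and RNU12 lie among the major spliceosome snRNA peaks (median -1.03), and RNU4ATAC (-0.41) lies above all 14 of them.

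Peaks most like each member were sought among 18876 gene-end peaks whose mean count was 50 or more, by Pearson's r of log2 CPM over the 8 libraries. Libraries share depth and treatment, so r is high by construction and is given as a description. RNU11 was most like a peak at RNVU1-2, a variant U1 gene, and MIR6077 (r = 0.998) and then a peak at MMACHC and CCDC163 (0.998). The peaks most like RNU12 were at NOTCH4 and GPSM3 (0.998) and at TTLL5 and ERG28 (0.998). For RNU4ATAC they were at GM2A (0.994) and LOC100128966 (0.992), and for RNU6ATAC at ZNF321P (0.991) and at COQ8B and NUMBL (0.989). Their log2 fold changes ranged from -0.98 to -0.26, since r does not measure the size of a change. Among the members r ran from 0.83, between RNU4ATAC and RNU6ATAC, to 0.986, between RNU11 and RNU12.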

How the data were processed

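The authors deposited raw counts per peak for 129536 peaks in 8 libraries. Per the submitters' processing notes, which give no role or order, the tools were Trim Galore 0.6.10, FastQC 0.12.1, MultiQC 1.28, BWA 0.7.17, SAMtools 1.22, Picard, MACS2 2.2.9.1, bedtools, deepTools 3.5.4 and DESeq2, with GRCh38. How peaks were merged, and whether reads or fragments were counted, is not given in the sources used here. The table counts starts from 0, so 1 was added. Columns were matched to labels by treatment and replicate number.

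Gene ends came from RefSeq (GRCh38.p14). With R 4.3.3, edgeR 4.0.16 removed 49 peaks (filterByExpr, minimum count 10, total 15), leaving 129487, and fitted TMM factors and a quasi-likelihood test with treatment as the only term. Standard errors are the log2 fold change over the root of F. Ratios used a pseudocount of 0.5 counts and exact permutation tests. Named peaks were all members, their nearest neighbours, the peak of smallest p and any past 2-fold in each list, and 2 like peaks per member. Some others, among them RNPC3, ZCRB1 and INTS12, were named outside this rule. Members and lists were chosen with earlier results of these data known. Alternatives were other scalings (DESeq2 size factors, library totals, gene-end or contig factors, loess offset), DESeq2 1.42.0, other filters, windows and thresholds, blocks, and libraries left out. On 129487 simulated peaks with 200 changed 2-fold, edgeR recovered 137 with 7 false calls, and DESeq2 97 with 9. The simulation gave all peaks the same extra spread and split the changes evenly up and down. It therefore does not bear on the choice of scaling.

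Member counts ran from 349 to 2580 per library, so counting error is at most 5.35%. Reads copied by PCR are not independent, so this covers counting only. Same-numbered libraries did not deviate together, and the main tests treated them as unpaired. The labels do not say whether they were paired, and this check cannot settle it.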

Additional observations from a re-analysis of the deposited data

How the results depend on the processing

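Under 19 alternatives, RNU11 kept log2 fold changes of -1.19 to -0.91 and RNU12 of -1.20 to -0.91, with all calls kept. RNU4ATAC ranged from -0.53 to -0.19 and RNU6ATAC from -0.60 to -0.35. With contig factors 2 members were lower, and RNU4ATAC (-0.47, edgeR adjusted p = 0.170) and RNU6ATAC (-0.60, adjusted p = 0.0742) were not called; the cause was not tested. Gene-end factors moved the all-peak median to 0.19, and RNU4ATAC then had -0.23. Calls over all peaks numbered 37715, against 14352 with contig factors and 21385 at the minimum mean of 50 counts. Leaving out each library in turn kept 4 members lower, at -1.18 to -1.07 for RNU11, -1.20 to -1.07 for RNU12, -0.48 to -0.37 for RNU4ATAC and -0.58 to -0.49 for RNU6ATAC.

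Gene-end factors gave 6 lower and 1 higher peak of snRNA transcription factor genes, 3 lower peaks of other polymerase III genes, and 2 higher peaks each of minor spliceosome proteins and Integrator. The loess offset gave 7 lower and 1 higher, 4 lower polymerase III peaks and 2 higher Integrator peaks, library totals 1 and the minimum mean of 50 counts 2 higher Integrator peaks. Without vehicle 4 and sorbitol 4, chosen after seeing the data, 0 minor spliceosome protein peaks were higher. Leaving out single libraries gave 10 to 11 lower and 0 to 1 higher peaks of minor spliceosome proteins, 12 to 13 lower of transcription factors, 13 to 16 of Integrator, 14 of major snRNA genes and 5 to 7 of other polymerase III genes.

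Libraries with the same replicate number did not deviate together (correlations 7.3e-05, 0.00647, -0.0309 and -0.132). With the replicate block in edgeR all 4 members stayed lower. The paired sign-flip test with the replicate block, whose smallest exact p is 0.125, has the same differences by construction: 0.60 and 0.58 for RNU6ATAC against RNU11 and RNU12 and 0.72 and 0.70 for RNU4ATAC against them (adjusted p = 0.188), and -0.49, -0.64, -0.57, -1.0 and -0.61 against the called neighbours (0.167). Leaving out a library makes 0.0571 the smallest exact p, so no ratio could pass. Then RNU6ATAC against RNU11 ranged from 0.53 to 0.64, against RNU12 from 0.52 to 0.63 and against RNU4ATAC from -0.18 to -0.05. RNU4ATAC against RNU11 ranged from 0.69 to 0.77 and against RNU12 from 0.65 to 0.75, and RNU11 against RNU12 from -0.067 to 0.022, reversing without vehicle 4 (0.022) or sorbitol 2 (0.022). RNU11 ranged from -0.53 to -0.42 against TAF12-DT and from -0.70 to -0.57 against GMEB1, RNU12 from -0.71 to -0.32 against LOC124905127 and from -1.05 to -0.91 against CYB5R3. RNU4ATAC ranged from -0.77 to -0.49 against TFCP2L1 and from -0.16 to -0.08 against CLASP1, and RNU6ATAC from -0.011 to 0.21 against WDR5-DT, reversing without sorbitol 1, and from -0.41 to -0.03 against LOC124902297.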

Other observations

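Pseudogenes of the 4 snRNA genes were looked up after the data had been seen. Of 64 pseudogenes in the gene table, 54 had no peak within 1 kb of either end, and the other 10 had 11 peaks. These were weak, from 0.987 to 12.8 CPM on average (median 2.09), and 0 of 11 were called by edgeR in either direction (0 of 11 at an unadjusted p under 0.05, and 0 by DESeq2). In the same fit 29.1% of all tested peaks and 41.6% of gene-end peaks were called. The share among peaks as weak as these was not computed, so the count does not show that pseudogene peaks stay unchanged. The strongest pseudogene peak, at RNU6ATAC34P on chromosome 20, had 13.0 CPM in vehicle and 12.6 in sorbitol libraries, a log2 fold change of -0.12. RNU12-2P and the RNU11 pseudogenes had no peak.

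Near RNU12, a weak peak at RNU6-513P, a U6 pseudogene, went from 3.42 to 1.39 CPM (log2 fold change -1.38, edgeR adjusted p = 1.90e-05). It was chosen after its values were seen and was the 1 peak among the 10 around RNU12 with a lower log2 fold change than RNU12.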
